A study of Homo sapiens with 3 samples.

Results

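The ER chaperones and secretory folding machinery were examined as 38 named genes among the 33423 genes listed in at least 1 of 3 single-cell RNA-seq libraries. The genes were taken by name: 5 stress sensors and transcription factors, 12 chaperones and co-chaperones, 5 enzymes of disulfide bond formation, 4 components of ER-associated degradation and 12 parts of the translocation and signal peptide machinery. The libraries came from 2 established prostate cancer cell lines, which the labels describe as sensitive to enzalutamide (ENZ), an antiandrogen drug. VCaP parental was exposed to 0.1% DMSO for 48 h, VCaP–ENZ48 to 10 µM ENZ for 48 h and LNCaP–ENZ168 to 10 µM ENZ for 168 h. The lines were grown in different media, both with serum. Each group was 1 library, and no LNCaP library without ENZ is part of these 3, so cell line, exposure time, medium and preparation cannot be told apart in any comparison with LNCaP–ENZ168.

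Secreted and membrane proteins enter the ER through the SEC61 channel, lose their signal peptide, receive N-glycans and disulfide bonds and fold with the help of the lumenal chaperone HSPA5 (BiP), the HSP90 family member HSP90B1 and the lectins calnexin and calreticulin. Unfolded protein draws HSPA5 away from 3 sensors, ATF6, ERN1 (IRE1) and EIF2AK3 (PERK), and the resulting unfolded protein response raises transcription of chaperones through cleaved ATF6 and spliced XBP1. Prostate luminal cells are secretory and use this machinery for the proteins of the seminal fluid.

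The libraries held 1000 barcodes each, of which 944 (LNCaP–ENZ168), 997 (VCaP parental) and 947 (VCaP–ENZ48) were kept. Their kept cells held 6313283, 19515202 and 14301287 unique molecular identifiers (UMIs, 1 per captured transcript molecule). The median cell had 5389, 17817 and 11224 UMIs. ERG, which VCaP expresses from a gene fusion, had 0 UMIs in LNCaP–ENZ168, which allows up to 0.475 counts per 1000000 UMIs (CPM), against 105 and 57.1 CPM in the VCaP libraries. The luminal keratins KRT8 and KRT18 were present in all 3, whereas the leukocyte, fibroblast and endothelial genes PTPRC, COL1A1, DCN, PECAM1 and VWF had between 0 and 13 UMIs per library. The mitochondrial share of UMIs was 6.24% in VCaP parental and 7.49% in VCaP–ENZ48, and the ribosomal protein share was 20.4% and 24.8%. The summed S phase genes differed more, at 3929 CPM in VCaP parental, 1115 CPM in VCaP–ENZ48 and 2201 CPM in LNCaP–ENZ168, and the summed G2/M genes were at 11164, 1747 and 4146 CPM.

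The promoters of these genes are where ATF6 and XBP1 act, so the short sequences that carry the known ER stress response elements are shown first. Windows from 250 bases before to 50 bases after the transcript start (RefSeq, GRCh38.p14) were matched for 36 of the 38 genes. They were searched on both strands for ERSE (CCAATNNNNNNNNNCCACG, bound by NF-Y at its first part and ATF6 or XBP1 at its last), ERSE-II (ATTGG and CCACG with 1 free base between them) and UPRE (TGACGTGG). In the stretches below, read 5′ to 3′ on the strand of the gene, capitals mark the fixed bases of each match, which appear as their reverse complement where the element lies on the opposite strand. Printed are some genes with a match that are described further down as lower in VCaP–ENZ48 (HSPA5, HSP90B1, SDF2L1, CRELD2, HYOU1, PDIA6). Those close to the median gene (HERPUD1, CALR) or higher (XBP1) are printed too. CANX, SERP1 and SSR3 also had a match and are described as lower, but their stretches are not printed.
HSPA5 (chr9:125241381-125241419, minus strand): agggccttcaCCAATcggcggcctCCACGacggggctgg
HSP90B1 (chr12:103930206-103930349, plus strand): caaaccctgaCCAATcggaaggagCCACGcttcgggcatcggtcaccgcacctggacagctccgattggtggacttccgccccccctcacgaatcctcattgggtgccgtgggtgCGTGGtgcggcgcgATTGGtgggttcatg
SDF2L1 (chr22:21642104-21642134, plus strand): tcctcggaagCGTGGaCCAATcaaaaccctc
CRELD2 (chr22:49918544-49918582, plus strand): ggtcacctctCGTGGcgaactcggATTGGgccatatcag
HYOU1 (chr11:119057264-119057403, minus strand): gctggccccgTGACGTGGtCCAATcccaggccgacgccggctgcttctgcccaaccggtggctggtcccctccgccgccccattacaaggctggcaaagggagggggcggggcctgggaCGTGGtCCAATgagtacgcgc
PDIA6 (chr2:10812843-10812881, minus strand): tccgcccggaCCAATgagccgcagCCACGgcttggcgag
HERPUD1 (chr16:56932015-56932045, plus strand): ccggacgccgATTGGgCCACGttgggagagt
CALR (chr19:12938374-12938412, plus strand): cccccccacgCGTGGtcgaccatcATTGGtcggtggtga
XBP1 (chr22:28800593-28800631, minus strand): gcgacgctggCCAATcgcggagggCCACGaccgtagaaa
HSPA5 had 1 ERSE from base -66 to -48 relative to the start, and HSP90B1 had 2, from -194 to -176 and from -89 to -71. HYOU1 had an UPRE that overlapped an ERSE-II, and a further ERSE-II nearer the start. SDF2L1 and HERPUD1 each had 1 ERSE-II.

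An ERSE was found in 8 of the 36 members (22.2%), against 0.0916% of the 27305 genes with a window. ERSE-II was found in 3 members (8.33%, against 0.0696% of genes) and UPRE in 2 (5.56%, against 0.927%). Counting any of the 3 elements, 12 members (33.3%) had a match, against 1.08% of genes. By role these were 7 of 12 chaperones (CALR, CANX, CRELD2, HSP90B1, HSPA5, HYOU1, SDF2L1), 1 of 4 disulfide enzymes with a window (PDIA6), 1 of 4 degradation components (HERPUD1), 1 of 5 sensors and factors (XBP1) and 2 of 11 translocation genes (SERP1, SSR3). The members include chaperones that the unfolded protein response is known to raise. A larger share than over all genes was therefore likely in advance and tests nothing about these libraries. A letter match is not a shown binding site, and absence of a match says only that these letters were not in this window.

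**Figure D1:**
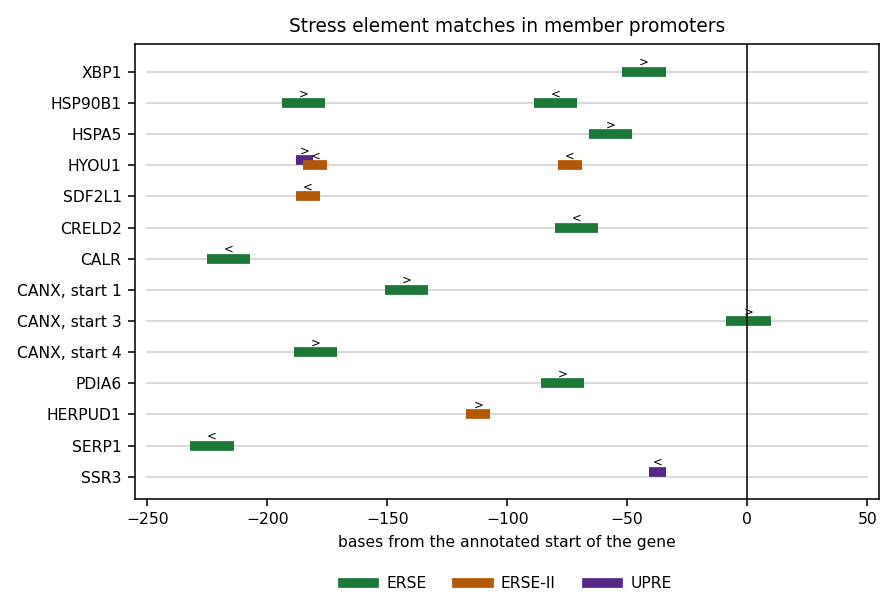
Position of each match in the promoter windows of the 12 members with any, in bases from the transcript start, coloured by element, with arrowheads for the strand. Among the annotated starts of CANX, 3 see the same site at different distances and the rest had no match. The site spans the nearest of these starts, and all other matches lay before the start, from -232 (SERP1) to -34 (XBP1, SSR3).

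Together the 38 genes took 11192 CPM in LNCaP–ENZ168, 12389 CPM in VCaP parental and 8295 CPM in VCaP–ENZ48, or 1.12%, 1.24% and 0.829% of all UMIs. The chaperones summed to 5377, 6851 and 4032 CPM in that order of libraries, the disulfide enzymes to 1918, 1932 and 1249 CPM, and the translocation genes to 3252, 3155 and 2531 CPM. Degradation components summed to 306, 215 and 195 CPM and sensors and factors to 339, 237 and 288 CPM. Thus chaperones, disulfide enzymes, degradation components and translocation genes had their lowest sums in VCaP–ENZ48, while the sensors and factors had theirs in VCaP parental. The most frequent order of a single gene was LNCaP–ENZ168 above VCaP parental above VCaP–ENZ48, seen in 16 of 38 members (42.1%), followed by VCaP parental above LNCaP–ENZ168 above VCaP–ENZ48 in 9 (23.7%). Among the 8504 genes that averaged 10 CPM or more over the 3 libraries, these orders took 32.2% and 10.7%. The median gene was itself higher in LNCaP–ENZ168, by 0.65 on the log2 scale over VCaP–ENZ48 and by 0.57 over VCaP parental, and ribosomal protein genes took 10.3% of UMIs in LNCaP–ENZ168, so a top place for that library is also what an average gene shows. Levels are not compared between genes here, since UMIs were counted near transcript 3′ ends and were not scaled by length.

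**Figure D2:**
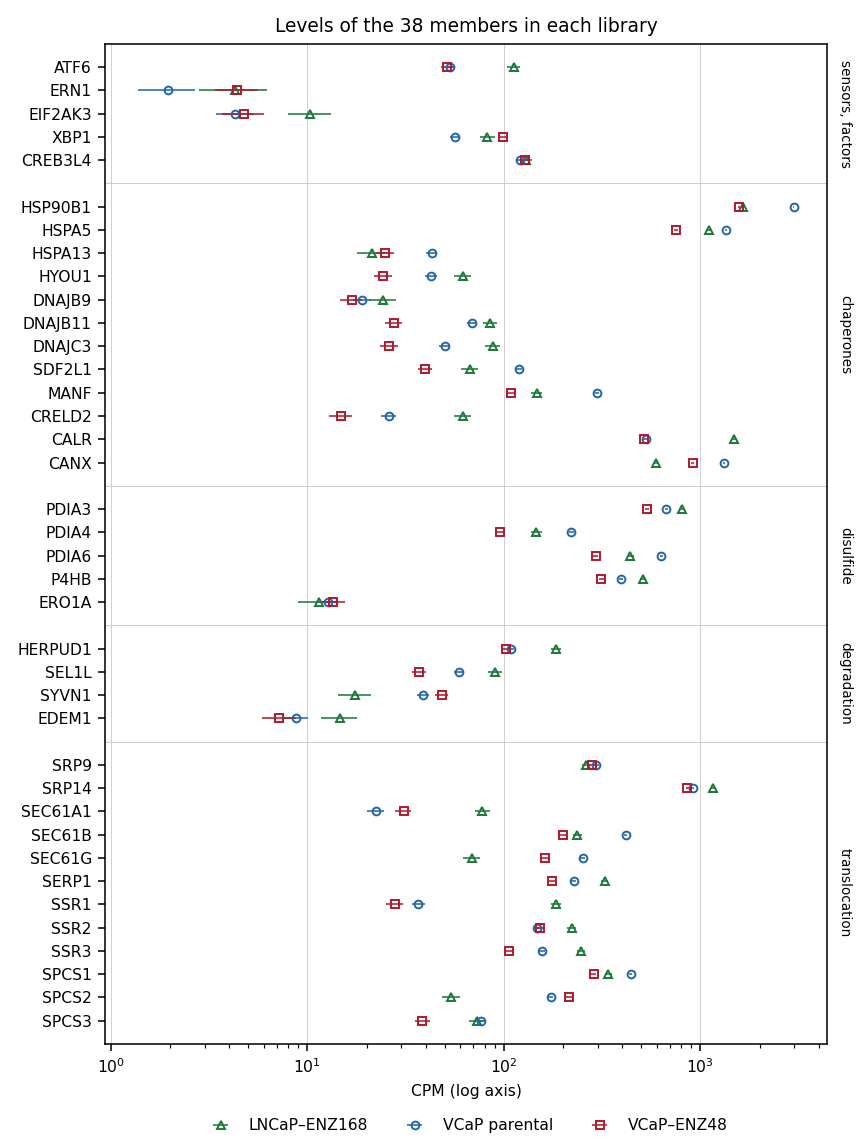
Level of each of the 38 genes in the 3 libraries, in CPM on a log axis, grouped by role, with exact Poisson 95% intervals. HSP90B1, HSPA5, MANF and SDF2L1 stood highest in VCaP parental, and CALR, SSR1 and SEC61A1 in LNCaP–ENZ168.

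The first comparison asked which genes differed between VCaP cells exposed to ENZ for 48 h and their DMSO control. In VCaP–ENZ48, HSP90B1, HSPA5, MANF, SDF2L1, DNAJB11, PDIA4, PDIA6 and SEC61B were lower than in VCaP parental, by between 1.80 times (HSPA5) and 2.96 times (SDF2L1) on the scale of CPM + 1, while XBP1 was 1.74 times higher. ATF6, CALR, HERPUD1, SRP9 and SRP14 were within 0.03 log2 units of the median gene. With 1 library per group there was no test, and a difference was described as 2-fold only where the log2 ratio of CPM + 1 lay at least 1 from the median log2 ratio of all genes tested, which was -0.07. All relative log2 ratios below are distances from that median, and their 95% intervals, like those of the levels, cover counting error only and not variation between cultures.

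Of the 38 genes, 35 had a mean of at least 10 CPM over the pair, with ERN1, EIF2AK3 and EDEM1 below it. None of the 35 was 2-fold higher, where 8.97% of the 7729 genes tested were. 5 members (14.3%) were 2-fold lower, where 6.03% of all genes tested were: DNAJB11, SDF2L1, MANF, PDIA4 and PDIA6. SEC61B, at -0.98, lay just outside and PDIA6, at -1.04, just inside. In all, 26 members lay below the median gene and 9 above it, and the median member had a relative log2 ratio of -0.47 (medians of the bounds -0.51 and -0.40), where the quartiles of all genes were -0.37 and 0.40. The median was -0.75 for chaperones, -0.27 for disulfide enzymes, -0.01 for degradation components, 0.15 for sensors and factors and -0.31 for translocation genes. Library totals were also taken without mitochondrial and ribosomal protein genes, whose shares differed within the pair. Then 6 members were 2-fold lower (6.08% of all genes) and the median member was at -0.44. In cells of 10000 to 20000 UMIs, where the depths were closer, it was at -0.51.

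**Figure D3:**
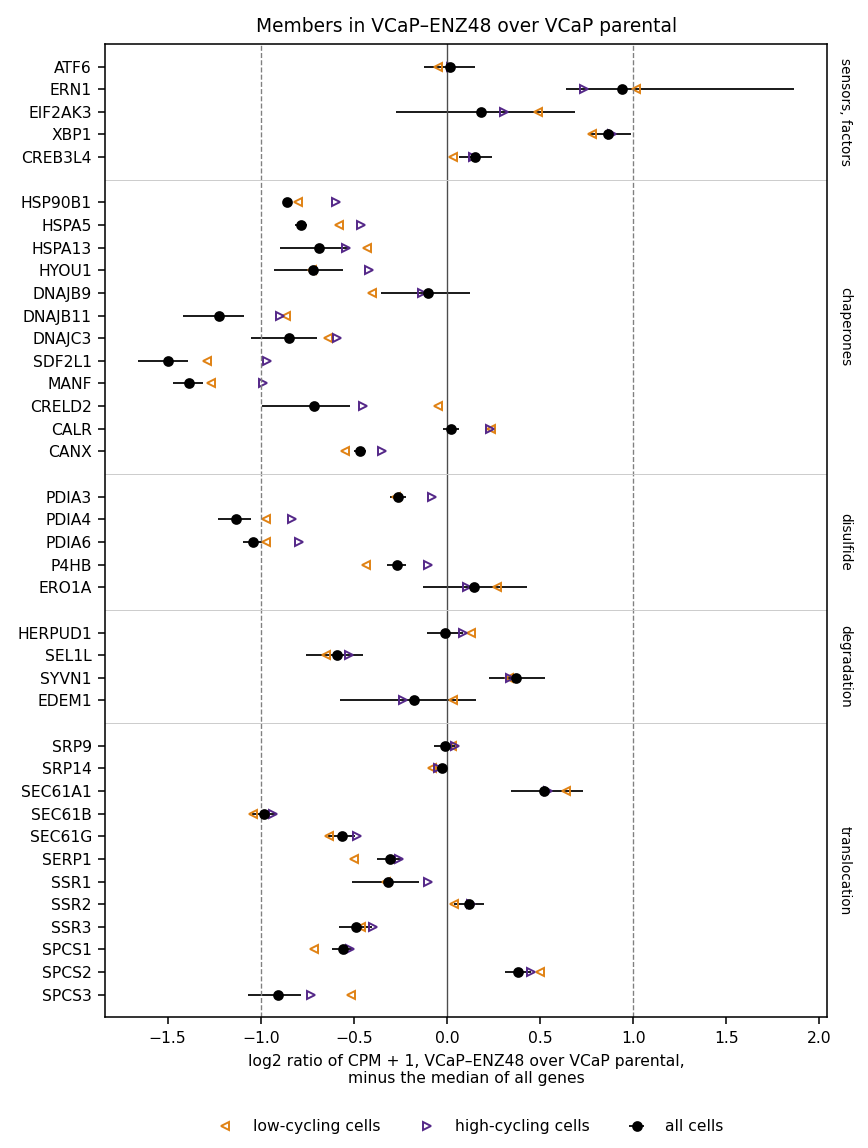
Relative log2 ratio of VCaP–ENZ48 over VCaP parental for each gene by role, with 95% counting intervals, 0 being the median of all genes tested and dashed lines 2-fold. 11 of the 12 chaperones lay below 0, XBP1 lay at 0.86 and ATF6 at 0.01 with an interval that spans 0.

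Among the chaperones, HSPA5, the lumenal HSP70 that binds nascent chains, was at 1355 CPM (interval 1339 to 1371) in VCaP parental and 751 CPM (737 to 765) in VCaP–ENZ48, a relative log2 ratio of -0.78. HSP90B1 (GRP94), which folds integrins and other client proteins, was at 2980 CPM (2956 to 3005) and 1571 CPM (1551 to 1592), a relative log2 ratio of -0.86. Both intervals were far apart, and both genes carry ERSE matches in the stretches printed above. HSPA13, a microsomal relative of HSP70, was at 42.8 and 24.96 CPM (-0.69), and HYOU1 (GRP170), a nucleotide exchange factor for HSPA5, at 42.6 and 24.3 CPM (-0.72).

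The J-domain proteins, which bring substrates to HSPA5 and stimulate its ATPase, differed among themselves. DNAJB11 (ERdj3) was at 68.7 CPM in VCaP parental and 27.6 CPM in VCaP–ENZ48, with a relative log2 ratio of -1.22 (interval -1.42 to -1.09). DNAJC3 (P58IPK) was at 49.9 and 26.0 CPM (-0.85, interval -1.05 to -0.70). DNAJB9 (ERdj4), which hands misfolded proteins to degradation, was at 19.0 and 16.8 CPM (-0.10, interval -0.35 to 0.12), so its difference from the median gene was within counting error.

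Other companions of HSPA5 included the members with the lowest ratios. SDF2L1, which forms a complex with DNAJB11, was at 119 CPM in VCaP parental and 39.6 CPM in VCaP–ENZ48, a relative log2 ratio of -1.50 (interval -1.66 to -1.39), the lowest of the 35 tested. MANF, an ER protein that binds HSPA5 and can be secreted, was at 297 and 108 CPM (-1.38, interval -1.47 to -1.31). CRELD2, an ER protein of the stress response, was nearer to the chaperones' median, at 26.0 and 14.8 CPM (-0.71, interval -0.99 to -0.52).

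The lectin chaperones stood apart from these. CALR (calreticulin), which holds monoglucosylated glycoproteins in the lumen, was at 529.6 CPM in VCaP parental and 513 CPM in VCaP–ENZ48. Its relative log2 ratio was 0.02 (interval -0.02 to 0.06), and its promoter carries an ERSE match, shown above. CANX (calnexin), its membrane-bound counterpart, was at 1322 and 914 CPM (-0.47). CALR was thus the only chaperone of the 12 above the median gene.

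Of the disulfide enzymes, PDIA4 (ERp72) was at 220.1 CPM in VCaP parental and 95.4 CPM in VCaP–ENZ48, a relative log2 ratio of -1.13 (interval -1.23 to -1.05). PDIA6, an isomerase that also binds HSPA5, was at 633 and 294 CPM (-1.04, interval -1.09 to -0.99). PDIA3 (ERp57), the partner of the lectin chaperones, was at 672 and 535 CPM (-0.26), and P4HB (PDI) at 394 and 312 CPM (-0.27). Both of the latter were within the quartiles of all genes, unlike PDIA4 and PDIA6. ERO1A, the oxidase that recharges P4HB, was at 12.7 and 13.4 CPM (0.15, interval -0.13 to 0.43).

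Components of degradation showed no common direction. SEL1L, the adaptor of the HRD1 ubiquitin ligase complex, was at 58.8 CPM in VCaP parental and 37.0 CPM in VCaP–ENZ48 (-0.59), whereas SYVN1, the HRD1 ligase itself, was at 38.8 and 48.2 CPM (0.37, interval 0.23 to 0.53). SYVN1 overlaps FAU on the same strand, so its counts are uncertain. HERPUD1, which assembles that complex, was at 108 and 103 CPM (-0.01), close to the median gene, and its ERSE-II match is shown above. EDEM1, a lectin that directs trimmed glycoproteins to degradation, was at 8.71 and 7.20 CPM, below the 10 CPM minimum.

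Of the 3 sensors and factors tested, XBP1 was above the median gene in all 13 alternatives run for single members and ATF6 was close to it. XBP1, whose spliced form drives chaperone and degradation genes, was at 56.5 CPM (53.2 to 60.0) in VCaP parental and 99.0 CPM (93.9 to 104) in VCaP–ENZ48, a relative log2 ratio of 0.86 (interval 0.76 to 0.99), the highest of the 35 tested. Gene-level counts do not separate spliced from unspliced XBP1. ATF6 was at 53.2 and 51.3 CPM (0.01, interval -0.12 to 0.15, below 0 in 7 of 13 alternatives), and CREB3L4, a membrane-bound factor related to ATF6 and known to be androgen-regulated in prostate cells, was at 121 and 128 CPM (0.15, and -0.0010 in barcodes ending in a base). Among the sensors below the minimum, ERN1, the nuclease that splices XBP1, had 38 UMIs (1.95 CPM) and 63 UMIs (4.41 CPM), and EIF2AK3 was at 4.30 and 4.75 CPM.

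At the translocation step the members SRP9 and SRP14 of the signal recognition particle were near the median gene. SRP9 was at 296 CPM in VCaP parental and 280.4 CPM in VCaP–ENZ48 (-0.01), and SRP14 at 913 and 856 CPM (-0.03). SRP19 (-0.66) and SRP68 (0.28) of the same particle, from the further translocation genes, were not as close. The 3 subunits of the SEC61 channel went different ways. SEC61B was at 416 and 201 CPM (-0.98, interval -1.05 to -0.92) and SEC61G at 251 and 162 CPM (-0.56), but the pore-forming SEC61A1 at 22.2 and 30.8 CPM (0.52, interval 0.34 to 0.73). SERP1 (RAMP4), which binds the channel, was at 227 and 175 CPM (-0.30).

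Subunits of the translocon-associated complex and the signal peptidase also differed from each other. In the former, SSR3 was at 156 CPM in VCaP parental and 106 CPM in VCaP–ENZ48 (-0.49) and SSR1 at 36.7 and 27.9 CPM (-0.32), against 147 and 153 CPM for SSR2 (0.12). In the signal peptidase, which removes signal peptides, SPCS3 was at 76.4 and 38.5 CPM (-0.91) and SPCS1 at 442 and 286 CPM (-0.56), against 173 and 215 CPM for SPCS2 (0.38). Genes with 4 (SPCS2), 5 (SRP14) and 2 (SSR1, PDIA3) named pseudogenes could share reads with them, as could HSPA5, XBP1, SRP9 and SEC61G with 1 each.

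Members with and without an element match were set side by side as a description. The 12 with a match had a median relative log2 ratio of -0.60 in the VCaP pair, with 10 below the median gene. The 21 tested with a window and no match had a median of -0.27, with 14 below. The matched genes ranged from -1.50 (SDF2L1) to 0.86 (XBP1), so a match went with either direction. Roles were not balanced between these sets, since 7 of the 12 matched genes were chaperones, the group with a median of -0.75. The chaperones without a match were MANF (-1.38), DNAJB11 (-1.22), DNAJC3 (-0.85), HSPA13 (-0.69) and DNAJB9 (-0.10). Whether the elements had a part in any of these levels was not tested.

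Other ER genes, listed by function, had a median nearer to that of all genes. Of 101 genes in 5 further lists, 86 were tested in the VCaP pair, with 58 below the median gene, 28 above it and a median of -0.23. None was 2-fold higher (8.97% of all genes), and CLGN (calmegin, a relative of calnexin) alone was 2-fold lower (6.03%). CLGN was at 96.3 CPM in VCaP parental and 36.0 CPM in VCaP–ENZ48 (-1.33). In the list of other folding genes (13 tested, median -0.25), the peroxiredoxin PRDX4 was at 368 and 185 CPM (-0.92) and the prolyl isomerase FKBP2 at 65.1 and 92.6 CPM (0.57). In N-glycosylation (16 tested, median -0.19), the ribophorins RPN2 (-0.72) and RPN1 (-0.59) were on the low side and the glucosidase subunit PRKCSH (0.86) on the high side. Further translocation genes (19 tested) had a median of -0.35, with SEC11C of the signal peptidase at -0.71 and EMC10 at 0.41. Other degradation genes (16 tested) had a median of -0.13, with UFD1 at -0.67 and the lectin OS9 and ERLIN2 at 0.71 and 0.73. ER to Golgi transport genes (22 tested) had a median of -0.15, with the coat proteins SEC13 and SEC23B both at -0.57 and the cargo receptor ERGIC3 at 0.88.

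Cell cycle genes moved with this comparison. The 40 S phase genes tested had a median relative log2 ratio of -1.72 in VCaP–ENZ48 and the 52 G2/M genes one of -2.98, and none of the 38 members is in either list. Members were therefore set out in cells with little cycling RNA, at most 4 S and G2/M UMIs of 2000 drawn (the median cell of VCaP–ENZ48), and in the rest. In VCaP parental 112 cells were low-cycling and 885 high-cycling, against 574 and 343 in VCaP–ENZ48, where 30 cells had too few UMIs to be classed. Between low-cycling cells of the pair the median member was at -0.43, and 3 members were 2-fold lower, SDF2L1, MANF and SEC61B (2.51% of all genes). Between high-cycling cells it was at -0.35 with 0 members 2-fold lower (4.75% of all genes), a comparison that was added after the data were seen. The classes were not matched in full, since high-cycling cells still held 16514 CPM of S and G2/M genes in VCaP parental and 5017 CPM in VCaP–ENZ48. HSP90B1 was at -0.80 between low-cycling and -0.60 between high-cycling cells, HSPA5 at -0.58 and -0.46, SDF2L1 at -1.29 and -0.96, and MANF at -1.27 and -0.99. XBP1 stayed on the high side, at 0.78 and 0.89, and CRELD2 was at -0.05 and -0.45.

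Within the VCaP libraries, summed chaperones were higher in high-cycling than in low-cycling cells, and in LNCaP–ENZ168 the values were close. HSPA5 was at 1398 CPM in high-cycling and 979 CPM in low-cycling cells of VCaP parental, and at 986 and 623 CPM in VCaP–ENZ48, relative log2 ratios of 0.52 and 0.62. In LNCaP–ENZ168, with 733 high-cycling and 210 low-cycling cells, HSPA5 was at 1085 and 1168 CPM (-0.12). The summed chaperones were at 6982 and 5700 CPM in VCaP parental, 4933 and 3543 CPM in VCaP–ENZ48 and 5358 and 5439 CPM in LNCaP–ENZ168.
SDF2L1 was at 125 and 72.8 CPM in VCaP parental (0.77), 61.5 and 27.7 CPM in VCaP–ENZ48 (1.08) and 68.1 and 63.5 CPM in LNCaP–ENZ168 (0.08). MANF had relative log2 ratios of 0.49, 0.75 and 0.04 in the same order, DNAJB11 0.69, 0.64 and 0.25, and HSP90B1 0.28, 0.47 and -0.02. By contrast ATF6 (-0.07, -0.01 and -0.05) and SRP14 (-0.07, -0.06 and -0.19) were at or below the median gene in all 3. Over the tested members, 21 of 35 in VCaP parental, 28 of 35 in VCaP–ENZ48 and 19 of 37 in LNCaP–ENZ168 lay above the median gene. PDIA6, at 0.28, 0.44 and 0.14, was the only member whose log2 ratio had a counting interval above 0 in all 3 libraries. Cells of 1 library are not replicates, and the difference between LNCaP–ENZ168 and the VCaP libraries was not tested.

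**Figure D4:**
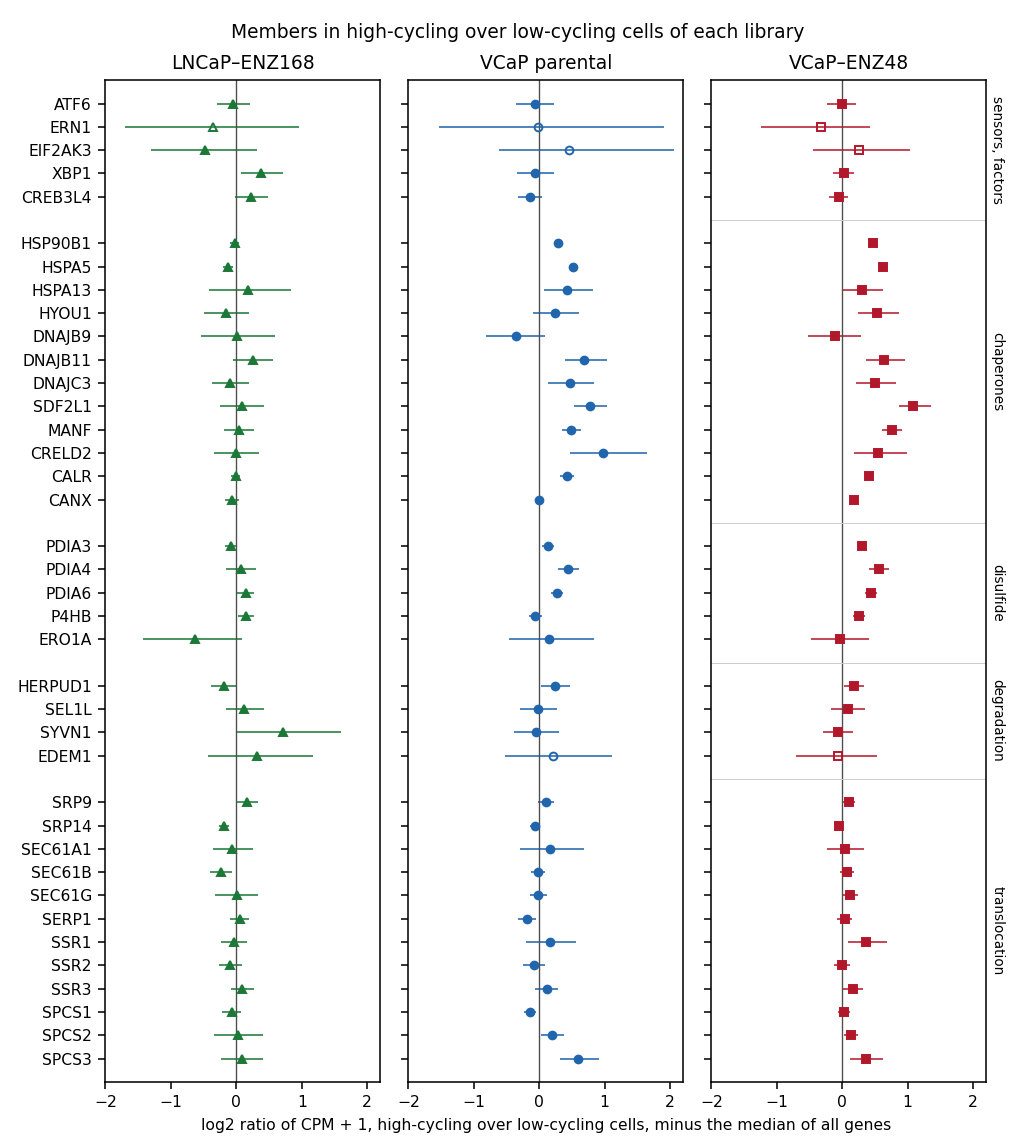
Relative log2 ratio of high-cycling over low-cycling cells within each library for each gene, 0 being the median of all genes tested in that library. Values for HSPA5, SDF2L1, MANF and CRELD2 lay above 0 in both VCaP libraries. In LNCaP–ENZ168 those for SDF2L1, MANF and CRELD2 lay near 0 and HSPA5 lay at -0.12.

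The level of the chaperones also varied from cell to cell. With every cell reduced to 2000 UMIs, HSP90B1 had a median of 5 UMIs in VCaP parental (10th and 90th percentiles 2 and 11, highest 28), 2 in VCaP–ENZ48 (0 and 7, highest 52) and 3 in LNCaP–ENZ168 (1 and 6, highest 14). Its variance over its mean was 2.51, 4.23 and 1.42 in that order, higher than for 99.6% of 2936, 99.5% of 2698 and 96.0% of 3866 genes that averaged at least 0.1 UMIs. This ratio rises with the mean where cells vary, and HSP90B1, at means of 6.02, 3.34 and 3.27 UMIs, was not matched on level with those genes. In VCaP–ENZ48 a lower median thus went with a higher maximum. HSPA5 had ratios of variance to mean of 2.08, 2.93 and 1.64, and CALR of 1.34, 1.92 and 1.39, whereas the median member, at 1.08, 1.12 and 1.09, was close to the median gene at 1.03, 1.06 and 1.05. The 12 chaperones together had medians of 13, 7 and 10 UMIs per cell, with highest values of 49, 76 and 43.

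HSPA5 and HSP90B1 were high in the same cells to a moderate degree. Across the 997, 917 and 943 cells of VCaP parental, VCaP–ENZ48 and LNCaP–ENZ168, they had Spearman correlations of 0.31, 0.35 and 0.20. These were the highest of HSPA5 with any single member. HSPA5 had 0.36, 0.39 and 0.24 with the sum of the other 11 chaperones, which includes HSP90B1. With CALR it had 0.12, 0.25 and 0.13, but some chaperones were near 0, such as DNAJC3 (0.03, 0.04 and 0.03) and CRELD2 (0.02, 0.0013 and 0.0029). HSPA5 had 0.22, 0.33 and 0.15 with the disulfide enzymes, 0.17, 0.36 and 0.09 with the other ER genes, 0.04, 0.01 and -0.06 with the summed translocation genes and 0.25, 0.15 and -0.14 with the S and G2/M genes, so the covariation was not particular to chaperones. With the depth of the cell before the draw, HSPA5 had 0.03, 0.02 and -0.03. These are descriptions within single libraries, over cells that share a preparation.

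The second comparison set LNCaP–ENZ168 against VCaP–ENZ48, 2 lines that had both received ENZ, and shares VCaP–ENZ48 with the first. SSR1, CRELD2, DNAJC3, DNAJB11, CALR, HYOU1 and SEC61A1 were higher in LNCaP–ENZ168 than the median gene, and SPCS2, SYVN1, SEC61G and CANX were the lowest. The median log2 ratio of all 8854 genes tested was 0.65, which all relative ratios below subtract, and the quartiles were -0.70 and 0.64. Of 36 tested members, 3 (8.33%) were 2-fold higher and 4 (11.1%) 2-fold lower, below the shares of all genes, 15.2% and 18.6%. 16 lay above and 20 below the median gene, and the median member was at -0.07 (medians of the bounds -0.14 and 0.04). The medians were -0.01 for chaperones, -0.06 for disulfide enzymes, 0.23 for degradation components, -0.64 for sensors and factors and -0.17 for translocation genes.

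**Figure D5:**
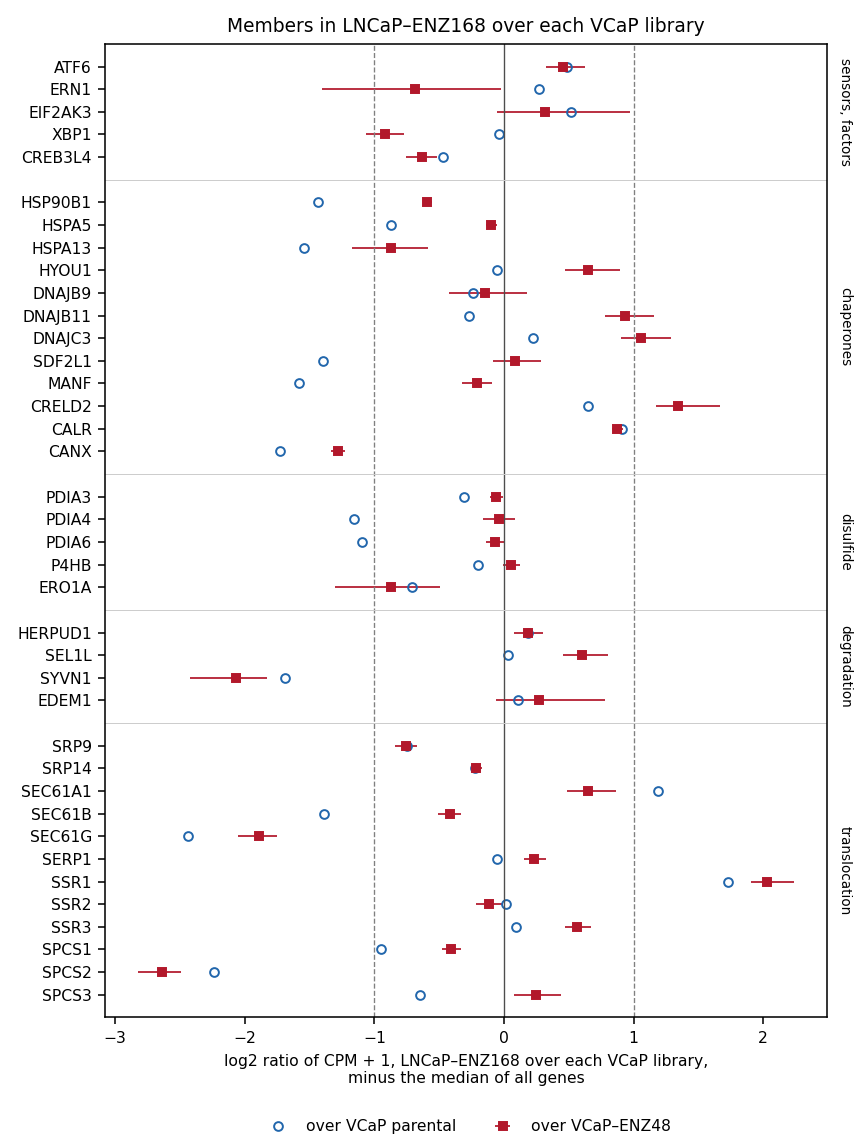
Level of each gene in LNCaP–ENZ168 against VCaP–ENZ48, as relative log2 ratio, by role, with 95% counting intervals, 0 being the median of all genes tested and dashed lines 2-fold. Members spread from -2.64 (SPCS2) to 2.03 (SSR1) on both sides of 0.

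Within protein complexes the subunits lay apart in this comparison, where all genes tested also spread widely (5th and 95th percentiles -3.26 and 1.83). In the translocon-associated complex SSR1 was at 185 CPM in LNCaP–ENZ168, 36.7 CPM in VCaP parental and 27.9 CPM in VCaP–ENZ48, a relative log2 ratio of 2.03 (interval 1.91 to 2.24), while SSR2, at 222, 147 and 153 CPM, was at -0.12 and SSR3, at 247, 156 and 106 CPM, at 0.56. In the signal peptidase SPCS2 was at 53.7, 173 and 215 CPM (-2.64, interval -2.82 to -2.49), SPCS1 at 339.9, 442 and 286 CPM (-0.41) and SPCS3 at 72.5, 76.4 and 38.5 CPM (0.24). In the SEC61 channel SEC61A1 was at 77.6, 22.2 and 30.8 CPM (0.65), SEC61B at 237, 416 and 201 CPM (-0.42) and SEC61G at 68.4, 251 and 162 CPM (-1.89, interval -2.05 to -1.75). In the HRD1 complex SEL1L was at 89.97, 58.8 and 37.0 CPM (0.60) and SYVN1 at 17.4, 38.8 and 48.2 CPM (-2.07). Whether the pseudogenes of SSR1 and SPCS2 or the overlap of SYVN1 with FAU had a part in this was not tested.

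The lectin pair lay apart in this comparison as well. CALR was at 1482 CPM in LNCaP–ENZ168 (relative log2 ratio 0.87, interval 0.83 to 0.92), above both VCaP libraries, and CANX at 593 CPM (-1.28, interval -1.33 to -1.23), below both. With VCaP parental as the reference the values were 0.91 and -1.73.

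For the chaperones that differed within the VCaP pair, the value for LNCaP–ENZ168 depended on which VCaP library it was set against. HSPA5, at 1105 CPM, was at -0.10 relative to VCaP–ENZ48 and -0.87 relative to VCaP parental. HSP90B1, at 1641 CPM, was at -0.59 and -1.43, MANF, at 147 CPM, at -0.21 and -1.58, SDF2L1, at 67.0 CPM, at 0.09 and -1.40, and HSPA13, at 21.4 CPM, at -0.87 and -1.54. PDIA4 (146 CPM) was at -0.04 and -1.16, and PDIA6 (439.9 CPM) at -0.07 and -1.10. Against VCaP parental 2 members were 2-fold higher (17.6% of all genes) and 11 2-fold lower (19.9%), and the median member was at -0.29.
CRELD2, at 61.9 CPM, was above both (1.34 and 0.65), as was DNAJC3, at 87.6 CPM (1.06 and 0.23). DNAJB11, at 84.9 CPM, was at 0.93 and -0.27, and HYOU1, at 61.6 CPM, at 0.65 and -0.05. DNAJB9, at 24.2 CPM, was at -0.15 and -0.24.

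The remaining members are given relative to VCaP–ENZ48. PDIA3 was at 808 CPM in LNCaP–ENZ168 (-0.06) and P4HB at 512 CPM (0.06), both close to the median gene, and ERO1A at 11.4 CPM (-0.87, interval -1.30 to -0.49). HERPUD1 was at 184 CPM (0.18), EDEM1 at 14.6 CPM (0.27, interval -0.06 to 0.78) and SERP1 at 325 CPM (0.23). SRP14 was at 1163 CPM (-0.21) and SRP9 at 262 CPM (-0.75).
Of the sensors and factors, ATF6 was at 112 CPM (0.46), XBP1 at 82.4 CPM (-0.92, interval -1.07 to -0.77) and CREB3L4 at 129.9 CPM (-0.64). ATF6 was therefore above the median gene where XBP1 and CREB3L4 were below it. With VCaP parental as the reference, ATF6 was at 0.49, XBP1 at -0.04 and CREB3L4 at -0.47, so the low value of XBP1 depended on the reference. ERN1 had 27 UMIs (4.28 CPM) and EIF2AK3 was at 10.3 CPM.

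The further ER lists gave no common shift in this comparison. Of their 94 tested genes 7 were 2-fold higher and 12 2-fold lower, where 15.2% and 18.6% of all genes were. Their median was -0.13. FKBP2 was at 7.29 CPM in LNCaP–ENZ168 against 92.6 CPM in VCaP–ENZ48 (-4.15), and EMC10 at 165 against 45.3 CPM (1.18). The S phase and G2/M genes had medians of 0.31 and 1.09.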

How the data were processed

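Drop-seq libraries of LNCaP–ENZ168, VCaP parental and VCaP–ENZ48 were aligned by the authors with STAR against GRCh38 and Gencode genes in the Drop-seq tools pipeline, with 1000 cells expected per library. The deposited values are UMI counts per gene and barcode, not normalized. Counting by gene cannot separate transcript isoforms, and genes that share sequence can lose or share reads.

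Barcodes with at least 300 genes, 500 UMIs and at most 25% mitochondrial UMIs were kept, and doublets were not removed. UMIs were summed over the cells of each library and divided by the library total to give CPM. Log2 ratios used CPM + 1, for genes averaging 10 CPM or more over the pair, relative to the median of those genes. Exact Poisson intervals and exact conditional intervals of ratios (95%) were computed with scipy 1.17.1. A gene was counted as changed past 2-fold. No test was made between groups, since each has 1 library. Low- and high-cycling cells were divided by the S and G2/M lists of Seurat 5.3.0 after drawing 2000 UMIs per cell. TMM factors came from edgeR 4.0.16 as an alternative. Scripts used Python 3.11.15 with pandas 2.3.3 and were checked on simulated counts.

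The members and lists were chosen with earlier results of these data known. All 38 members are named, and from each further list the genes with the lowest and highest ratio in the VCaP pair. Promoter windows were taken from RefSeq (GRCh38.p14).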

Additional observations from a re-analysis of the deposited data

How the results depend on the processing

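Alternatives were other scalings, pseudocounts, minima, cell filters and subsets of cells. No paired analysis was possible because the groups hold a single library each. In the VCaP pair the median member lay below the median gene under all of them. It was -0.47 as reported, -0.39 in barcodes ending in a base, -0.51 in cells of 10000 to 20000 UMIs, -0.35 in high-cycling cells (chosen after seeing the data), -0.54 with a minimum of 1 CPM, -0.22 with a minimum of 50 CPM and -0.53 without centring on the median gene. The count of 2-fold lower members, 5 as reported, was 3 in low-cycling cells (2.51% of all genes) and 0 in high-cycling cells (4.75%). It was 10 with a minimum of 1 CPM (6.72%) and 2 with a minimum of 50 CPM (5.72%). The 3 in low-cycling cells were SDF2L1, MANF and SEC61B, of which SEC61B is not among the 5. The count of higher members, 0 as reported, was 1 with equal weight of cells (9.24% of all genes) and 1 with a minimum of 50 CPM (6.89%). The median of the sensors and factors, 0.15 as reported, was -0.0010 in barcodes ending in a base and -0.048 with a minimum of 1 CPM. In barcodes ending in a base HSPA13 was at -0.26, SPCS3 at -0.44, ERN1 at 0.29 and EIF2AK3 at -0.44. Of the 1000 barcodes per library, 860 in VCaP parental, 869 in VCaP–ENZ48 and 212 in LNCaP–ENZ168 end in N in place of a base.

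In LNCaP–ENZ168 over VCaP–ENZ48 the median member, -0.07 as reported, was 0.10 in low-cycling and -0.23 in high-cycling cells, 0.092 with a minimum of 1 CPM, 0.59 without centring and -0.29 with VCaP parental as the reference. The count of higher members, 3 as reported, was 6 in low-cycling cells (15.9% of all genes), 5 with a minimum of 1 CPM (17.3%) and 10 without centring (35.5%), and that of lower members, 4 as reported, was 11 with VCaP parental as the reference (19.9%). The sign of the LNCaP median thus depended on the setting. The causes were not tested. TMM scaling moved the median of all genes by -0.27 in the VCaP pair and by -0.55 in the LNCaP pair, which the centring removes. Depth limits ERN1, EIF2AK3 and EDEM1, with the widest intervals, and with 1 library per group no value shows the spread between cultures.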

Other observations

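Heat shock proteins outside the ER and genes of the ATF4 response were listed beside the ER genes. In VCaP–ENZ48 over VCaP parental, the 13 tested cytosolic and mitochondrial heat shock proteins had a median relative log2 ratio of -0.46, with 9 below the median gene. Of these 13, 1 gene was 2-fold higher (8.97% of all genes) and none 2-fold lower (6.03%). The J-domain protein DNAJA1 was at 708 CPM in VCaP parental and 369 CPM in VCaP–ENZ48 (-0.87), HSPH1, an exchange factor for HSP70, at 103 and 55.7 CPM (-0.81) and HSP90AB1 at 3447 and 3518 CPM (0.10). The stress-inducible HSPA1B, at 7.53 and 19.3 CPM (1.32), was the 1 that was higher. In LNCaP–ENZ168 over VCaP–ENZ48 the list had 4 of 15 tested genes 2-fold higher (15.2% of all genes) and 2 lower (18.6%), with a median of 0.23.

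The 13 tested genes of the ATF4 response, the arm downstream of EIF2AK3 and other kinases, had a median of 0.03 in the VCaP pair. ATF4 itself was at 96.0 CPM in VCaP parental and 187 CPM in VCaP–ENZ48 (1.022), whereas MTHFD2, of mitochondrial folate metabolism, was at 129 and 56.0 CPM (-1.13) and PSAT1, of serine synthesis, at 89.8 and 39.9 CPM (-1.09). Those 2 were the lowest of the list, of which 7 genes lay above the median gene and 6 below, with PSPH, also of serine synthesis, at 0.32. In LNCaP–ENZ168 over VCaP–ENZ48 the list had 6 of 16 tested genes 2-fold higher (15.2% of all genes), 1 lower (18.6%) and a median of 0.76, with PSAT1 at 188 against 39.9 CPM (1.55). No chance level was computed for these lists.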
